A study of Rattus norvegicus with 4 samples.

Results

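The phagocyte NADPH oxidase is described here through 9 genes: the catalytic subunits Cybb, Nox1 and Nox4, the membrane partner Cyba, the cytosolic subunits Ncf1 and Ncf4, the small GTPases Rac1 and Rac2, and the proton channel Hvcn1. They were taken for their function, with earlier results of these data known, and every array probe whose transcript accession belongs to one of them was taken. This gave 10 probes for 8 of the 9 genes, among 21109 probes named for 16581 genes, and no probe was named for Hvcn1. The RNA came from NR8383, a macrophage line established from lavage of the lung of a normal rat, after 20 passages. The 4 cultures, labelled ALI_CB, were exposed for 4 h to 0.9 cm2/cm2 (the unit as labelled) of the carbon black Printex90. ALI is commonly short for air-liquid interface. Each culture was hybridised to 1 single-colour Agilent array, and the replicates are described as biological. Untreated cells belong to the study's design but are not analysed here, and nothing below is a response to the particles.

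The oxidase is a membrane enzyme that passes electrons from cytosolic NADPH to oxygen on the far side of the membrane, which makes superoxide in phagosomes and outside the cell. Its core is a haem protein of gp91phox (Cybb, also called NOX2) and p22phox (Cyba), and it lies idle until cytosolic subunits, among them p47phox (Ncf1) and p40phox (Ncf4), and a GTP-bound Rac protein bind to it. Alveolar macrophages use it against microbes, and loss of a subunit causes chronic granulomatous disease. Nox1 is best known from colon epithelium and Nox4 from kidney and vessel wall, and both also use p22phox.

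Of the 8 measured members, 6 (75%) were well above background on all 4 arrays, against a background of 50.8% of all 16581 named genes. These were Cybb, Cyba, Ncf1, Ncf4, Rac1 and Rac2, each by every probe that represents it. No test was made of this count. Nox1 and Nox4 were well above background on no array. Hvcn1 was not analysed here. In RNA of a whole culture, fewer cells that express a gene and less RNA of it per cell cannot be told apart.

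The promoters of the 3 catalytic genes are shown because 1 of these genes was read and the other 2 were not. Each is a window of 300 bases from RefSeq on GRCr8, written in the direction of the gene, 250 bases before its start site and 50 after it. Capitals mark GAGGAA, the core of sites for the myeloid factor PU.1, the CCAAT box and the GC box GGGCGG, searched on both strands together with the TATA box TATAAA. The windows lie at chrX:16065016-16065315 on the minus strand (Cybb), chrX:101595471-101595770 on the minus strand (Nox1) and chr1:150313639-150313938 on the plus strand (Nox4).
Cybb: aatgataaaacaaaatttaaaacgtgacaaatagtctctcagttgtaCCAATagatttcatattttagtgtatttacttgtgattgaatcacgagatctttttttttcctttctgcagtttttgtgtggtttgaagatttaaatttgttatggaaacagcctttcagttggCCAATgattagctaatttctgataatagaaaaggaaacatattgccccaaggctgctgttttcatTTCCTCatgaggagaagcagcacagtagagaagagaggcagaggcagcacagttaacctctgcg
Nox1: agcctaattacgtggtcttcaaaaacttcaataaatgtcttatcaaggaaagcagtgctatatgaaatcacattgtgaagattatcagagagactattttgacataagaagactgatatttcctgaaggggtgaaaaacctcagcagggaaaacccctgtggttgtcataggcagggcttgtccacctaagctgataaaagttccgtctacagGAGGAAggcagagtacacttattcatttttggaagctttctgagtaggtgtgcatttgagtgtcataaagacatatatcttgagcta
Nox4: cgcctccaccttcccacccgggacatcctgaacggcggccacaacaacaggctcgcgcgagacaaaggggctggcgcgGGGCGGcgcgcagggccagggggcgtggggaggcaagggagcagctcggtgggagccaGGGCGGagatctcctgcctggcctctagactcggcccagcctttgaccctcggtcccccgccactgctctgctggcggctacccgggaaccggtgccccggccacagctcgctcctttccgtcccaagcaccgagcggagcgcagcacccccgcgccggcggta

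The Cybb window held GAGGAA on the opposite strand, so that it reads TTCCTC above, with its first printed base 14 bases before the start site. It also held CCAAT in 2 places, at 203 and 79 bases before the start. The Nox1 window held GAGGAA at 37 bases before the start, and the Nox4 window held the GC box in 2 places and neither of the other motifs. The windows differed in base composition, with 35.7% G or C for Cybb, 39.3% for Nox1 and 73.0% for Nox4, against a median of 51.7% over 33469 windows. Windows were held for 5 members, the other two being Cyba and Ncf1, which each had a GC box. Over all 33469 windows GAGGAA was present in 27.6%, CCAAT in 37.5%, GGGCGG in 33.1% and TATAAA in 14.2%. TATAAA was in none of the 5 member windows, and no marked motif overlapped another. For Nox1, Nox4 and Ncf1 the start site of the window lies inside the annotated span of the gene, so another start may exist. These matches describe the letters only and were not tested against the signal.

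Values are given as processed intensity, which is the background-subtracted brightness of a spot in arbitrary units, and as level. A level is the log2 intensity relative to the 75th percentile of the array, taken over the non-control probes, so that 0 is that percentile. Levels of different probes were not ranked against each other, because a probe's brightness also depends on its sequence. The 75th percentile was at an intensity of 83.8 to 127 on the 4 arrays, highest on replicate 4. All arrays are from 1 slide, between 8917 and 9985 named genes were well above background on each, and no spot was saturated. Among macrophage markers 7 of 9 were detected on all 4 arrays, with Cd68 at a level of 7.56 ± 0.21 and Csf1r at 1.24 ± 0.18 (SD, n = 4 for both). The others were Marco, detected on 1 array at a mean of -3.66 ± 0.92, and Adgre1, detected on 2 at -2.67 ± 0.86 (SD, n = 4 for both). Markers of other cells gave 2 of 8 for neutrophils (Camp and Lcn2), 0 of 9 for epithelium, 2 of 7 for fibroblasts (Dcn and Acta2), 3 of 6 for endothelium (Pecam1, Cdh5 and Vwf) and 4 of 8 for T and B cells (Cd3d, Cd4, Lck and Pax5). Of all named genes 50.8% were detected on all 4 arrays, and the endothelial and the T and B cell counts were close to that share. The detected markers of other cells included Vwf at a level of 4.78 ± 0.15, Lcn2 at 3.16 ± 0.43, Camp at 3.01 ± 0.34, Pax5 at 0.60 ± 0.19 and Dcn at 0.20 ± 0.21 (SD, n = 4 for all). Vwf and Cd4 were detected by only 1 of their 2 probes. The other probe was well above background on no array, at -3.96 ± 0.12 for Vwf and -4.25 ± 0.72 for Cd4 (SD, n = 4 for both). The markers of other cells well above background on no array included Elane, Epcam, Col1a1, Kdr and Cd3e. The part of such cells in the members' values was not tested.

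**Figure D1:**
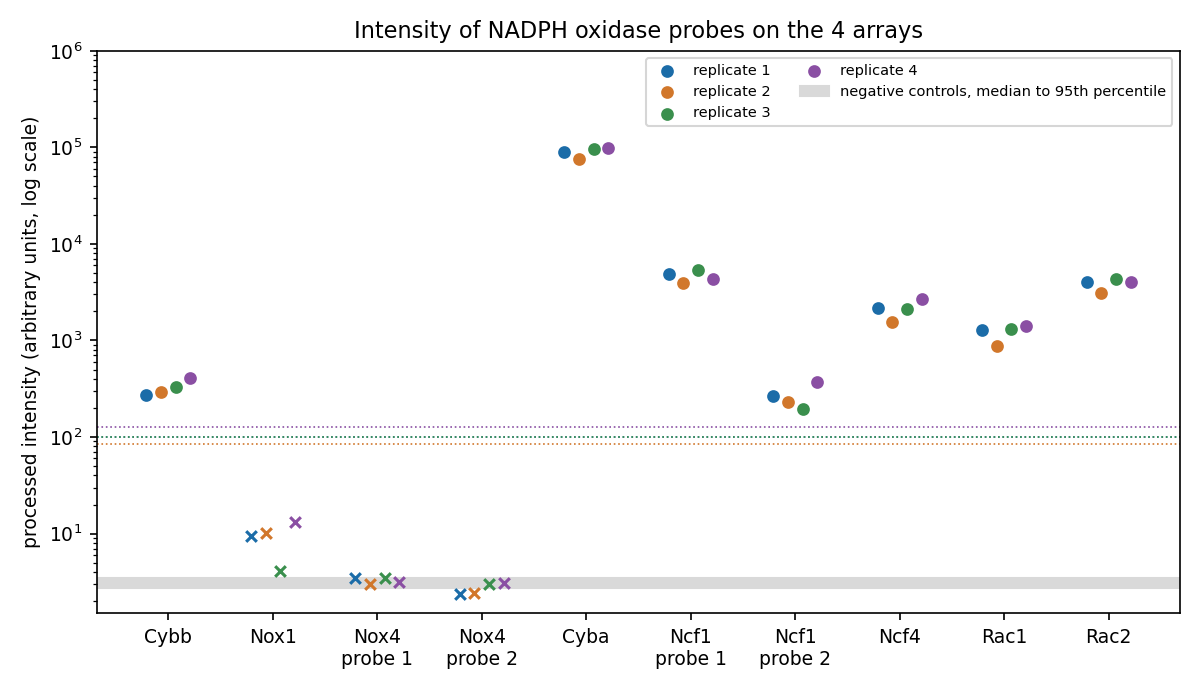
Processed intensity (log axis) of the 10 member probes on replicates 1 to 4, with circles for probes well above background on all 4 arrays and crosses for probes well above background on none. Dotted lines are the 75th percentiles of the arrays (83.8 to 127) and the grey band spans the negative-control spots from their lowest median to their highest 95th percentile (2.72 to 3.51). The probes of Nox4 lie on or beside the band, and the 7 detected probes lie above every dotted line. Heights of different probes are not a ranking of genes.

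Cybb encodes gp91phox, the subunit that carries the haems and the NADPH site. Its 1 probe, printed once, read intensities of 273, 295, 330 and 407 on replicates 1 to 4. These are levels of 1.46, 1.82, 1.71 and 1.68, with a mean of 1.67 ± 0.15 (SD, n = 4). Replicate 1 was the lowest and the other 3 lay within 0.14 of each other, and the whole range came to 1.28-fold. Against other named, detected probes printed once, 40.5% had a smaller SD.

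Nox1 and Nox4 gave values near the floor of the arrays. The Nox1 probe read intensities of 9.52, 10.1, 4.12 and 13.3, and the scanner software called it positive and significant, a weaker criterion than well above background, on all 4 arrays. Of 308 negative-control spots, 0, 2, 10 and 3 reached the Nox1 intensity on replicates 1 to 4. These counts cannot show on which array Nox1 was lowest, because bright control spots were unevenly spread. On the same arrays 0, 2, 7 and 4 control spots were themselves well above background. The Nox1 level was -3.58 ± 0.71 (SD, n = 4), a spread that rests on replicate 3, since the SD was 0.17 without that array. With normexp background correction of the median signals it was 0.12. Normexp here is a model-based correction to which an offset of 50 is added, which compresses dim values. The 2 probes of Nox4 read 3.47, 3.03, 3.48 and 3.15 for the first and 2.39, 2.42, 2.98 and 3.09 for the second. These lie among the negative controls, whose median was 2.72 to 3.19 per array. On replicates 1 to 4 the first probe was reached by 10, 13, 20 and 50 of the 308 control spots. The second was reached by 259, 235, 243 and 70. The second probe was positive and significant on 1 array, and the first on none. A signal below the detection limit of these probes does not show that the transcripts are missing.

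Cyba encodes p22phox, which stabilises the catalytic subunit and gives p47phox its docking site. Its probe is printed 10 times on each array, and 9 or 10 spots per array were used. The mean intensity was 89833, 75655, 95892 and 99347 on replicates 1 to 4, at levels of 9.82, 9.82, 9.89 and 9.61, a mean of 9.79 ± 0.12 (SD, n = 4). Replicate 4 was the lowest level although its unscaled intensity was the highest, and the whole range of levels came to 1.21-fold.

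Rac2 encodes the Rac GTPase of blood cells and Rac1 the widely expressed one, and either can switch on the oxidase when bound to GTP. The Rac2 probe is also printed 10 times, and read 4051, 3082, 4331 and 3983, at levels of 5.35, 5.20, 5.42 and 4.97 with a mean of 5.24 ± 0.20 (SD, n = 4). As for Cyba, replicate 3 was highest and replicate 4 lowest in level. The single spot of Rac1 read 1297, 874, 1318 and 1396, at levels of 3.71, 3.38, 3.71 and 3.46 with a mean of 3.56 ± 0.17 (SD, n = 4). Replicates 1 and 3 of Rac1 did not differ to 2 decimals, and replicate 2 was the lowest.

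The repeated spots of Cyba and Rac2 allow the spread between arrays to be set against the spread within an array. The 4 arrays differed for both genes (limma F test on single spots with array as factor, Benjamini-Hochberg over 1350 probes printed 3 or more times, adjusted p = 2.89e-08 for Cyba and 3.29e-10 for Rac2). Such a difference was the rule on these arrays, since 82.1% of the 1350 probes passed. For Cyba, replicate 4 lay at -0.23 ± 0.027 (SE) and replicate 3 at 0.14 ± 0.028 (SE) against the mean of the other 3 arrays, with a spot SD of 0.072. For Rac2 the same replicates lay at -0.35 ± 0.036 (SE) and 0.25 ± 0.034 (SE), with a spot SD of 0.090. All Cyba spots of replicate 4 were below the lowest spot of every other array, narrowly so for replicate 2, while the spots of replicates 1, 2 and 3 overlapped. Without replicate 4 the Cyba call was lost (adjusted p = 0.0937 by the limma F test, with 69.1% of probes passing), and that of Rac2 was kept (adjusted p = 0.000386 by the same test). Spots of 1 array share 1 RNA sample, so the test compares these 4 arrays and not conditions.

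**Figure D2:**
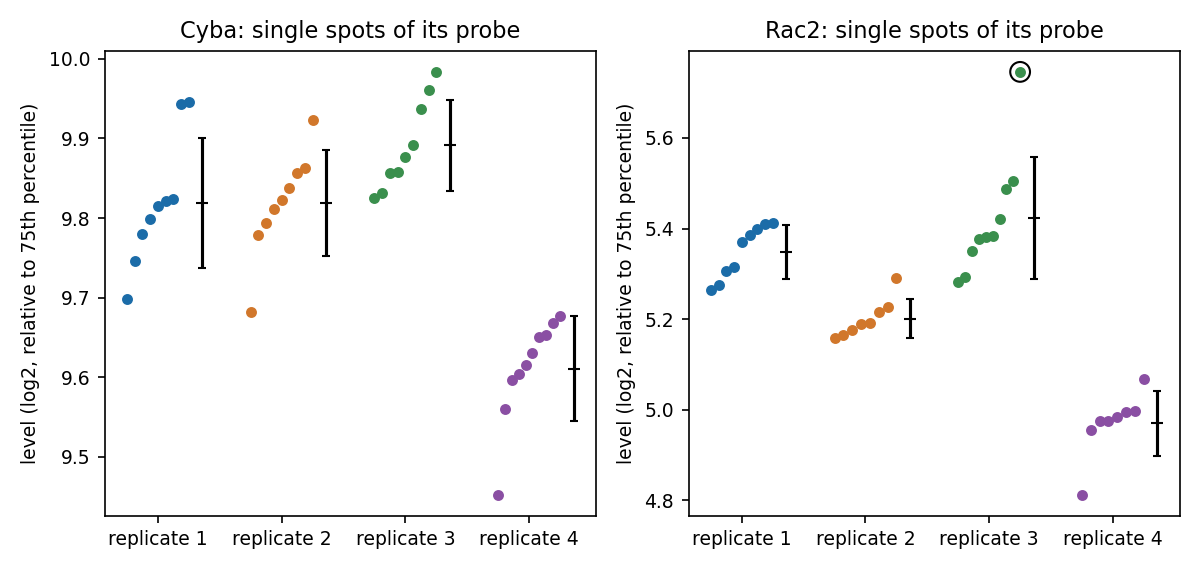
Levels of single spots of the Cyba and Rac2 probes on each array, sorted by value within an array, with the mean ± SD over the used spots in black. The vertical axes do not start at 0. All Cyba and Rac2 spots of replicate 4 lie below the spots of the other arrays, and the ringed Rac2 spot of replicate 3, at 5.75, lies in a bright region of that array.

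One Rac2 spot on replicate 3 lay in a bright region, a block of 16 rows and 8 columns in which at least 1 log2 unit above every other array was reached by over 10% of unnamed probes' spots. In its block 50 of 118 spots (42.4%) did so. That spot read 5.75, and the other 9 spots of Rac2 on the array had a mean of 5.39 ± 0.076 (SD) with a maximum of 5.50. With all bright blocks left out on every array, Rac2 was still highest on replicate 3 and lowest on replicate 4. Both genes then passed the F test (adjusted p = 1.41e-11 for Rac2 and 1.17e-09 for Cyba, limma), as did 84.2% of the 1349 probes tested.

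Ncf1 encodes p47phox, the organiser that is phosphorylated on activation and brings the cytosolic subunits to p22phox. It has 2 probes, each printed once, and they disagreed. The brighter one (A_64_P051322) read 4886, 3922, 5365 and 4349, at levels of 5.62, 5.55, 5.73 and 5.10 with a mean of 5.50 ± 0.28 (SD, n = 4). The weaker one (A_43_P12916) read 266, 230, 193 and 367, at levels of 1.42, 1.46, 0.94 and 1.53 with a mean of 1.34 ± 0.27 (SD, n = 4). Their order over the arrays was opposite at the ends, since the brighter probe was highest on replicate 3 and lowest on replicate 4, and the weaker probe lowest on replicate 3 and highest on replicate 4. The order of the weaker probe depends on scaling, since with the array median as zero point it was lowest on replicate 2 and highest on replicate 1, while the brighter probe kept its order. The gap between them was 4.16 ± 0.50 on the log2 scale (SD, n = 4), from 3.57 on replicate 4 to 4.80 on replicate 3. Over 1139 genes with 2 detected probes printed once, the SD of this gap had a median of 0.23, and 93.2% of them had a smaller SD than Ncf1. The files hold no probe sequences, so what part of the transcript each probe reads is not given here.

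Both probes of Ncf1 also touched bright regions, each on the array where it was highest. On replicate 3 the block of the brighter probe had 21 of 117 spots (17.9%) at least 1 log2 unit above every other array, with a median shift of 0.14 over the block. On replicate 4 the block of the weaker probe had 10 of 120 (8.33% of all its spots), with a median shift of -0.036. The low values, on replicate 4 for the brighter probe and on replicate 3 for the weaker, were outside such blocks. Each low value came from 1 array. Without replicate 4 the SD of the brighter probe went from 0.28 to 0.092, and without replicate 3 that of the weaker probe went from 0.27 to 0.058. With the other array left out instead, the low values stayed, at -0.32 from the mean for the brighter probe on replicate 4 and at -0.33 for the weaker on replicate 3. The part of the bright regions in the disagreement was not tested further.

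Ncf4 encodes p40phox, which binds a phosphoinositide of the phagosome membrane and holds the complex there. Its spot read 2150, 1555, 2135 and 2664, at levels of 4.43, 4.21, 4.40 and 4.39 with a mean of 4.36 ± 0.099 (SD, n = 4). Replicate 2 was the lowest and the other 3 lay within 0.05 of each other. Ncf4 and Rac2 are neighbours in the GRCr8 annotation, on chromosome 7 with 9 protein-coding genes between them, among these the receptor genes Csf2rb and Il2rb. The order of the arrays differed between the pair, since Ncf4 was lowest on replicate 2 and Rac2 on replicate 4.

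Across the detected probes the members varied between replicates about as much as other genes. The 7 probes had a median SD of 0.167, against 0.166 over all 10355 named probes detected on all 4 arrays. Which of these medians was larger depended on the processing, as given at the end. Among probes printed once the median was 0.172, and Ncf4, Cybb and Rac1 lay below it, at 0.099, 0.15 and 0.167. The Ncf1 probes, at 0.28 and 0.27, had larger SDs than 80.4% and 78.8% of probes printed once, although each rests on 1 array as given above. Probes printed 3 or more times had a median SD of 0.129, with Cyba below it at 0.121 and Rac2 above it at 0.20, where 87.9% of them were smaller. Leaving out 1 array also lowered other SDs by more than 1.5 times, to 0.042 for Cyba and 0.11 for Rac2 without replicate 4, to 0.074 for Cybb without replicate 1 and to 0.023 for Ncf4 without replicate 2.

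**Figure D3:**
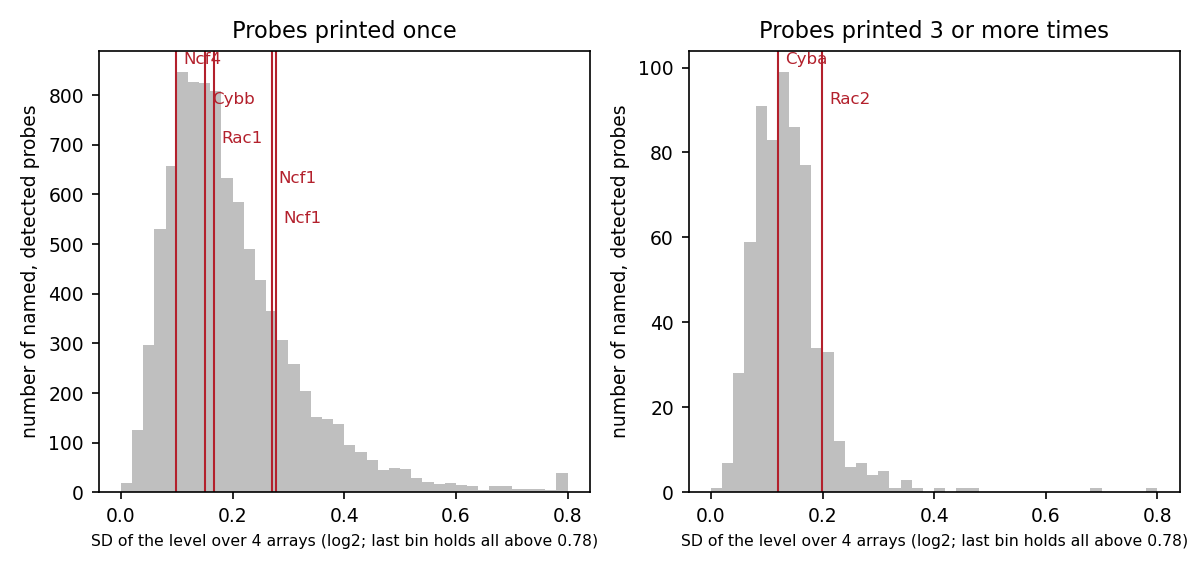
Histograms of the SD of the level over the 4 arrays for 9227 named, detected probes printed once (left) and 642 printed 3 or more times (right), with the 7 detected member probes as red lines. Ncf4, at 0.099, lies lowest in the left panel and both Ncf1 probes lie highest, at 0.27 and 0.28.

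The array on which a member was highest was replicate 3 for 4 of the 7 probes, those of Cyba, Rac1, Rac2 and the brighter probe of Ncf1. Over all 10355 probes 31.1% were highest there. Replicate 4 was lowest for 3 of the 7, those of Cyba, Rac2 and the brighter Ncf1 probe, against 29.9% of all. Cybb did not follow them, with its highest level on replicate 2 and its lowest on replicate 1. These orders depend on scaling: in unscaled intensity, 5 of the 7 probes were highest on replicate 4 and 5 were lowest on replicate 2.

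**Figure D4:**
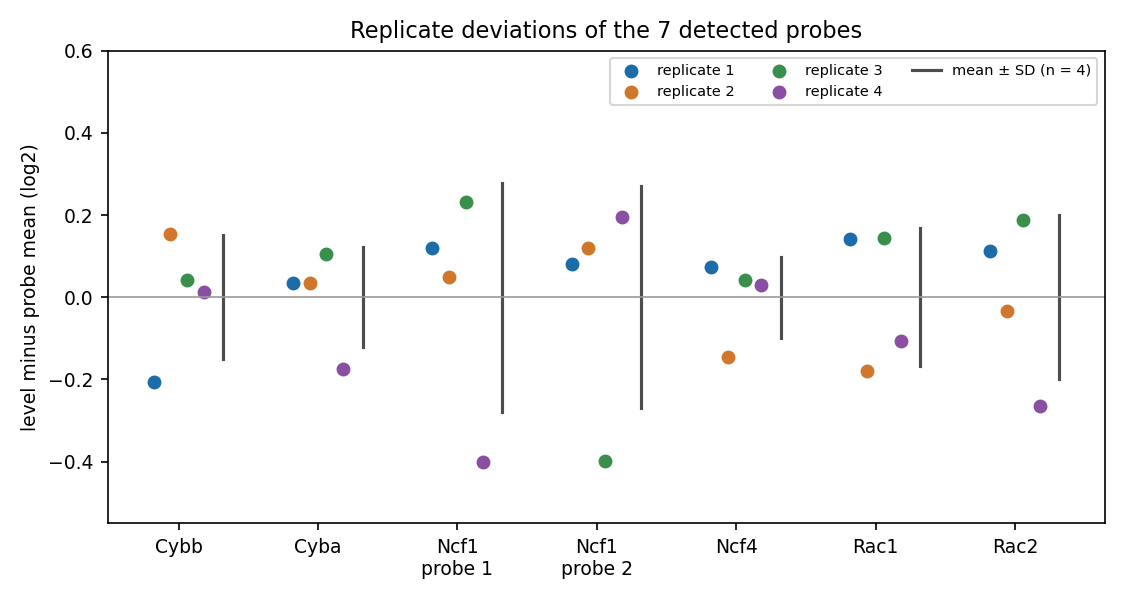
Level of each detected member probe on each array minus the mean of that probe (log2), with a bar of ± 1 SD (n = 4) beside it. Probes 1 and 2 of Ncf1 are the brighter and the weaker one, and replicates 3 and 4 stand at opposite ends for them with the 75th percentile as zero point. Cyba, Rac2 and probe 1 of Ncf1 are lowest on replicate 4.

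Other proteins of the oxidase family were detected in 4 of 8 measured cases (50%), close to the 50.8% of all named genes. Cybc1, the chaperone that gp91phox and p22phox need to mature, had levels of 2.95, 3.12, 3.07 and 3.28, a mean of 3.10 ± 0.14 (SD, n = 4). Rap1a, a small GTPase that was purified with the core protein, had a mean of 0.28 ± 0.11 (SD, n = 4). Noxa1, an activator that works with Nox1, lay at -2.09, -2.19, -2.71 and -3.61, and Duoxa2, the maturation factor of Duox2, at -1.37 ± 0.23 (SD, n = 4). On replicate 4 Noxa1 was near the floor although detected, at an intensity of 10.4, where the undetected Nox1 probe read 13.3. The catalytic genes Nox3, Duox1 and Duox2 and the maturation factor Duoxa1 reached detection on no array, with means between -5.04 and -3.94. No catalytic subunit other than Cybb was thus well above background among the 6 measured.

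Of the genes listed for signalling to the oxidase, inhibitors of Rac included, 12 of 14 were detected (85.7%, against 50.8% of all named genes). Vav1, an exchange factor that loads Rac with GTP in blood cells, had a mean level of 1.74 ± 0.16, and Tiam1, another exchange factor of Rac, one of -0.69 ± 0.21 (SD, n = 4 for both). Prex1, an exchange factor of neutrophils, was detected on 1 array, with a mean of -2.65 ± 0.50 (SD, n = 4). Arhgdia and Arhgdib, which hold Rac inactive in the cytosol, had means of 7.67 ± 0.097 and 7.43 ± 0.061 (SD, n = 4 for both). Prkcd, a protein kinase C that phosphorylates p47phox, had a mean of 5.50 ± 0.16 by its brighter probe and -1.17 ± 0.67 by its other one (SD, n = 4 for both). Prkcb, another kinase of p47phox, was on no array well above background by either of its 2 probes, and Pik3cg, a lipid kinase downstream of chemoattractant receptors, had a mean of -0.89 ± 0.20 (SD, n = 4).

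Of the transcription factors known to act on these genes in myeloid cells, 8 of 10 were detected (80%, against 50.8% of all named genes). Spi1, which encodes PU.1, had levels of 3.22, 3.18, 3.35 and 3.06 with a mean of 3.20 ± 0.12 (SD, n = 4). Irf8, its partner at the Cybb promoter in macrophages, read -5.23, -4.97, -5.02 and -5.36 and reached detection on no array. Irf1 had a mean of 2.88 ± 0.17 and Irf2 one of 3.35 ± 0.13 by 1 of its 2 probes, the other being undetected (SD, n = 4). Elf1 had a mean of 0.07 ± 0.24, Cebpe 2.68 ± 0.076 and Rela 3.00 ± 0.12 (SD, n = 4 for all). Cebpb had a mean of 7.71 ± 0.19 by one probe and 3.28 ± 0.20 by the other (SD, n = 4), and Cebpa was detected on 1 array.

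Enzymes that supply NADPH, the electron donor, were all detected, 4 of 4, against 50.8% of all named genes. Pgd, an enzyme of the pentose phosphate pathway, had a mean level of 3.92 ± 0.25 (SD, n = 4). Me1, the malic enzyme, had a mean of 4.11 ± 0.21 and Idh1, the cytosolic isocitrate dehydrogenase, 2.79 ± 0.27 (SD, n = 4 for both). Enzymes that handle superoxide and peroxide or make other oxidants were detected in 7 of 8 cases (87.5%, against the same 50.8%). Sod1, the cytosolic superoxide dismutase, had a mean of 7.28 ± 0.30, and Sod2, the mitochondrial one, levels of 5.43, 5.44, 5.41 and 4.85, lowest on replicate 4 like Cyba and Rac2. The secreted form Sod3 had a mean of -2.55 ± 0.068, catalase (Cat) -0.07 ± 0.12, the peroxidase genes Gpx1 7.28 ± 0.11 and Prdx1 6.19 ± 0.11, and xanthine dehydrogenase (Xdh) 1.57 ± 0.24 (SD, n = 4 for all). Nos2, the inducible nitric oxide synthase, was detected on 2 arrays.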

How the data were processed

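Gene expression of 4 replicates of 1 group was measured on 1-colour Agilent arrays of 62976 spots. The deposited values are intensity per spot, which the authors obtained with Agilent Feature Extraction, in version 11.0.1.1 according to the submitters' processing notes. Per the file headers they are background-subtracted, and no normalization between arrays is named. Flags of the scanner software marked spots to leave out (750 to 1551 non-control spots per array, non-uniform or population outliers) and spots well above background. The log2 intensities of a probe's spots were averaged, and each array was scaled to its 75th percentile. A gene in a list is given by the probe with the highest mean. Probe accessions were matched without version to RefSeq genes of GRCr8, which named 21109 of 45598 probes. The number of arrays, 4, limits the precision.

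Members, lists, motifs and tests were chosen with earlier results of these data known. Named are all members with every probe, all measured genes of 3 lists, the first 8 measured of 2 lists, and cell markers, except a few listed genes that are counted but not reported here by name. With 1 group no comparison between groups was made. Limma 3.58.1 in R 4.3.3 was used on spots of probes printed 3 or more times and was tested on simulated data. Other steps used Python 3.11.15, pandas 2.3.3 and numpy 2.4.6. Alternatives were another flag, detection on 3 of 4 arrays, every probe required, no detection filter, flagged spots kept, bright blocks removed, quantile normalization, the array median, the 75th percentile over detected probes, and leaving out each replicate. Normexp with an offset of 50 on median signals, and the F test without bright blocks, were added after the data were seen, the former because the files hold no mean signals.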

Additional observations from a re-analysis of the deposited data

Results flagged for a closer look

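A single array far from the other 3 was looked for in all 120 probes of the members and of the listed genes, and 8 were found. Chance gives about 1 in 20. The gap to the nearest array is given as a share of the whole range. Among the 10 member probes there was 1, the first probe of Nox4, which was lowest on replicate 4 (share 0.876) at a level of -5.33 against -4.86 to -4.79 elsewhere, and which was detected on no array. Pdgfra, also undetected, was lowest on replicate 4 (0.881), Kdr, undetected, was highest there (0.904), and Col1a1, undetected, was lowest on replicate 3 (0.841). Cd79b, detected on 1 array, was lowest on replicate 3 (0.919). Of the probes detected on all 4 arrays, the dimmer one of Prkcd was lowest on replicate 1 (0.859) at -2.17 against -0.94 to -0.74, Sod2 was lowest on replicate 4 (0.957) at 4.85 against 5.41 to 5.44, and Cd68 was lowest on replicate 1 (0.950) at 7.24 against 7.66 to 7.68.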

How the results depend on the processing

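The count of 6 detected members, beside 50.8% of all named genes, was 7 with the weaker flag, which added Nox1. With that flag 61.7% of all named genes were detected. The count was 5 without the bright blocks, beside 48.0% of all named genes. There both probes of Ncf1 were left with no spot and counted as not detected. The count was 6 when every probe was required (45.0% of all named genes) and when flagged spots were kept (51.3%). Each member was detected on all arrays or on none, so asking for fewer arrays, or leaving 1 out, could not change it. The median SD of the detected member probes, 0.167, rose to 0.425 with the array median, where that of all named, detected probes rose to 0.390. Over the other settings it lay between 0.130 and 0.198, and without 1 replicate between 0.119 and 0.169. The members were below the median of all named probes with quantile normalization (0.130 against 0.161) and without replicate 4 (0.119 against 0.156). They were above it with normexp (0.169 against 0.139) and with flagged spots kept (0.198 against 0.180). Of Cyba and Rac2, the number that differed between arrays was 1 to 2 without 1 replicate. It was 1 without replicate 4, where Cyba missed the threshold. Both passed in the other settings in which the test was run, with quantile normalization and the array median included. Passing was also common among all 1350 probes, at 59.5% with quantile normalization and 94.4% with the array median. Without replicate 1, 2 or 3 it was 65.9% to 76.4%. Levels moved by less than 1 SD with quantile normalization and with flagged spots kept for all 10 probes, and by more with the array median and the 75th percentile of detected probes, which change the zero point by construction. The normexp setting on mean signals was not run, since the files hold none. On median signals normexp moved 9 of 10 levels by over 1 SD. It lowered the SD over arrays from 0.12 to 0.046 for Cyba and from 0.20 to 0.14 for Rac2. Both were still highest on replicate 3 and lowest on replicate 4. The F test was not run with normexp. No paired analysis was possible because there is 1 group. The dimmest probes, Nox1 and Nox4, are limited by signal over background.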
